A study of Rattus norvegicus with 48 samples.

Results

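The miRNAs described here are rno-miR-342-3p, rno-miR-342-5p and rno-miR-1249, 3 of the 188 mature miRNAs measured by small RNA sequencing in laser-captured nephron segments of the rat kidney. They were chosen from earlier results of these same libraries, in which they stood higher in the proximal tubule than in the other segments, and miR-342-5p came in as the other arm of its precursor. Their proximal tubule levels are therefore given as a description, without a test. The segments were the proximal tubule (3 libraries, rats 1, 2 and 3), the glomerulus (2 libraries, rats 1 and 3), the thick ascending limb, part of Henle's loop (3 libraries, rats 1, 2 and 3) and the collecting duct (3 libraries, rats 1, 2 and 3). All came from naive male Sprague Dawley rats aged 6 months, so the groups differ in segment and share strain, sex, age and absence of treatment. Tubule segments were picked under fluorescence by antibodies to glutathione-S-transferase (proximal tubule), Tamm-Horsfall protein (thick ascending limb) or aquaporin-2 (collecting duct), and glomeruli by a histochemical stain, so the glomerulus and its kind of staining cannot be told apart. Each library was sequenced on 4 flow cells, A to D, whose runs are repeats of 1 library, and the rat is the replicate. A further glomerulus library labelled rat 3 carries the submitters' mark of removal and is not analysed here.

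A miRNA precursor is a hairpin whose arms are cut out as a short duplex, and one arm or the other is loaded into an Argonaute protein, where its seed pairs with target mRNAs. In human and mouse, miR-342 is cut from an intron of Evl, which codes for a regulator of the actin cytoskeleton of the Ena/VASP family, and it is best known from leukocytes. In human, miR-1249 is cut from an intron of KIAA0930. The proximal tubule reabsorbs most of the filtered solute and is known for high levels of miR-192 and miR-194.

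The mature sequences are shown first because the 3 miRNAs, chosen for a high level in the same segment, come from 2 precursors and have 3 different seeds. They are printed 5′ to 3′ as RefSeq gives them for the build GRCr8, with the seed (bases 2 to 8) in capitals.
miR-342-3p: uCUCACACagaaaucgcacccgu
miR-342-5p: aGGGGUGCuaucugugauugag
miR-1249: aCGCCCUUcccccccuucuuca
In GRCr8 the mature miR-342-3p lies at chr6:133329715-133329737 on the plus strand, and miR-342-5p at chr6:133329673-133329694 on the same strand. The mature miR-1249 lies at chr7:117955547-117955568 on the minus strand. Among the 172 miRNAs of the table that could be matched to a RefSeq sequence, no other one had the seed of any of these 3.

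The hairpins show which part of each precursor was counted, with the mature arms in capitals.
Mir342: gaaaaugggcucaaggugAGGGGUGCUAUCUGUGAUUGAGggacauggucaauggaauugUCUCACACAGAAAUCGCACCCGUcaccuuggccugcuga
Mir1249: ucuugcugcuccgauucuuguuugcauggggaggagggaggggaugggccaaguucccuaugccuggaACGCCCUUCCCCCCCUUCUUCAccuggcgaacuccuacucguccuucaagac
The Mir342 hairpin has 99 bases, at chr6:133329655-133329753, with the 5p arm at its bases 19 to 40 and the 3p arm at its bases 61 to 83. It lies within the span of Evl, on the strand of Evl. The Mir1249 hairpin has 120 bases, at chr7:117955517-117955636, and lies within the span of Kiaa0930 on that gene's strand. The gene table used here gives spans and not exons, so the intron is known only from human and mouse. The GC content was 52.2% in miR-342-3p, 50.0% in miR-342-5p and 63.6% in miR-1249, against a median of 46.7% over the 172 matched miRNAs, of which 6 had a higher GC content than miR-1249. The run of 7 C bases in miR-1249 was the longest of any of them, the next longest being 5.

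Values are the authors' TMM-normalised signal (a trimmed-mean scaling of read counts), averaged over the 4 runs of a library. The steps between low values gave an estimate of the value of 1 read in each run, and from it the reads behind the 188 miRNAs, 1296995 in the deepest library (thick ascending limb, rat 3) and 147996 in the shallowest (glomerulus, rat 3). Among the proximal tubule libraries the estimate was 544752 reads in rat 1, 914254 in rat 2 and 241314 in rat 3. The glomerulus library of rat 3 stood apart, with 51 of 188 miRNAs at 0 against 7 to 36 in the others, and the members' contrasts with the glomerulus are also given without it. The libraries labelled proximal tubule had the highest summed level of the proximal tubule markers miR-192-5p and miR-194-5p, 21130 to 26367, against 777 to 1424 in glomeruli, 2181 to 4280 in thick ascending limbs and 1259 to 2340 in collecting ducts. These are bulk samples of captured tissue, in which fewer cells of a type and less RNA per cell cannot be told apart.

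miR-342-3p was present in every proximal tubule run, in all 3 thick ascending limb libraries and in 1 library each of the glomerulus and the collecting duct. Its level was 13.1, 40.8 and 19.3 in the proximal tubule of rats 1, 2 and 3, against 6.48 and 0 in the glomerulus of rats 1 and 3, 3.79, 4.69 and 2.92 in the thick ascending limb of rats 1, 2 and 3, and 0, 5.48 and 0 in the collecting duct of rats 1, 2 and 3. The 3 proximal tubule libraries were the 3 highest of the 11, and the highest of the others was the glomerulus library of rat 1. The mean level was 24.4 ± 14.5 in the proximal tubule (SD, n = 3), against 3.24 ± 4.58 in the glomerulus (SD, n = 2), 3.80 ± 0.887 for the thick ascending limb (SD, n = 3) and 1.83 ± 3.16 for the collecting duct (SD, n = 3). The ratio of these means was 7.53 for the proximal tubule over the glomerulus, 6.42 over the thick ascending limb and 13.4 over the collecting duct. The thick ascending limb, the glomerulus and the collecting duct followed in that order, with overlapping libraries.

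The zeros of miR-342-3p are set here beside the reads that a level at the proximal tubule mean would have given. That level chose the member, so this is a description, and the cause of the zeros was not tested. In the collecting duct, 98.4 reads in rat 1 and 81.6 reads in rat 3 would have been counted at the proximal tubule mean, and 0 were found in either library. In the glomerulus of rat 3 the same calculation gave 45.8 reads, against 0 found. Across runs the miRNA was above 0 in 12 of 12 proximal tubule runs, against 4 of 8 glomerulus runs, 9 of 12 thick ascending limb runs and 4 of 12 collecting duct runs. In the thick ascending limb of rat 3, run A had 0 reads while runs B, C and D had 8, 11 and 3.

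miR-342-5p, the opposite arm, was lower than miR-342-3p in each segment mean. Its level was 24.0, 5.65 and 8.95 in the proximal tubule of rats 1, 2 and 3, against 3.04 and 0 in the glomerulus of rats 1 and 3, 0, 1.19 and 0 in the thick ascending limb of rats 1, 2 and 3, and 0 in each of the 3 collecting duct libraries. The proximal tubule libraries again did not overlap the others, and the glomerulus library of rat 1 was again the nearest. The mean was 12.9 ± 9.81 in the proximal tubule (SD, n = 3), against 1.52 ± 2.15 in the glomerulus (SD, n = 2) and 0.397 ± 0.688 in the thick ascending limb (SD, n = 3). The proximal tubule mean was 8.48 times that of the glomerulus and 32.4 times that of the thick ascending limb.

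In the collecting duct miR-342-5p was not detected in any of the 12 runs. A floor of 3 reads over the segment equals a value of 0.287 there, so the proximal tubule mean was at least 44.9-fold higher. At the proximal tubule mean, 52.0, 39.6 and 43.1 reads would have been counted in the collecting duct of rats 1, 2 and 3. The 5p arm rested on 128 reads in all proximal tubule runs, against 16 for glomerulus, 4 for thick ascending limb and 0 for collecting duct runs. The 3p arm rested on 273, against 31 for glomerulus, 41 for thick ascending limb and 18 for collecting duct runs. Floors and intervals cover counting error alone, because PCR copies without molecular identifiers are not independent molecules.

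miR-1249 was detected in the proximal tubule and the collecting duct and in no run of the glomerulus or the thick ascending limb. Its level was 5.95, 27.9 and 14.7 in the proximal tubule of rats 1, 2 and 3, against 0 in both glomerulus libraries, 0 in the 3 thick ascending limb libraries, and 4.08, 0 and 5.53 in the collecting duct of rats 1, 2 and 3. The gap between the segments was narrow at its edge, where the lowest proximal tubule library (rat 1) had 5.95 and the highest collecting duct library (rat 3) had 5.53. The mean was 16.2 ± 11.05 in the proximal tubule, against 3.20 ± 2.87 in the collecting duct (SD, n = 3 each), a ratio of 5.05. In reads, miR-1249 had 172 in the proximal tubule, against 35 in the collecting duct and 0 in either of the other segments.

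With a floor of 3 reads over each segment, equal to 0.445 in the glomerulus and 0.255 in the thick ascending limb, the proximal tubule mean of miR-1249 was at least 36.4-fold higher than in the glomerulus and at least 63.4-fold higher than in the thick ascending limb. The deepest library of all, the thick ascending limb of rat 3, would have held 121 reads at the proximal tubule mean and held 0. The collecting duct library of rat 2 would have held 49.7 and held 0, while those of rats 1 and 3 held 16 and 19 reads, against 65.3 and 54.1 at the proximal tubule mean.

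**Figure D1:**
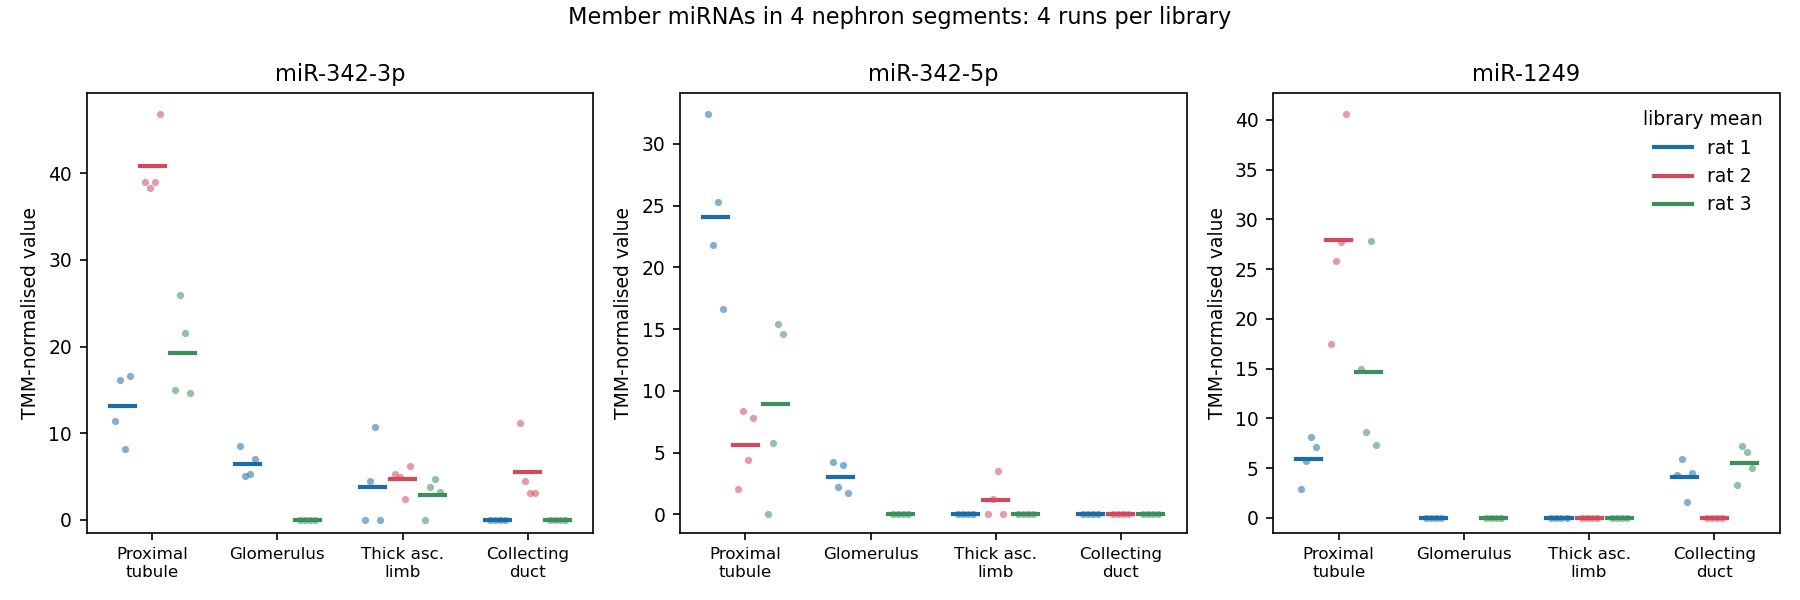
Level of miR-342-3p, miR-342-5p and miR-1249 (authors' TMM-normalised signal, linear axis) by segment, with a point for each of the 4 runs of a library and a bar for the library mean, coloured by rat. For each miRNA every proximal tubule library mean lies above every other library mean, and for miR-1249 the margin is 5.95 against 5.53.

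All 3 miRNAs had every proximal tubule library above every other library, as did 19 of the 188 miRNAs of the table (10.1%), and since this pattern chose the members nothing is read from the count. On the log2(value + 1) scale, which understates the change of low miRNAs, the proximal tubule minus the mean of the other segments was 2.92 ± 0.89 for miR-342-3p, 2.89 ± 0.94 for miR-342-5p and 3.26 ± 0.93 for miR-1249 (SE from limma). This contrast chose the members, so the size of a difference against its SE is not read as a test. For orientation, 24 of 188 miRNAs (12.8%) passed a limma adjusted p of 0.05 in this contrast over the whole table. Its median over all 188 was 0.36. Without the glomerulus library of rat 3 the 3 differences were 2.40, 2.67 and 3.18.

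Within single rats, log2(value + 1) in the proximal tubule minus the mean of that rat's other libraries was positive in every case. This was fixed in advance, because every proximal tubule library lay above every other library. Rat 2 has no glomerulus library, so its value is against the thick ascending limb and the collecting duct alone. The difference varied in size. For miR-342-3p it was 2.31, 2.89 and 3.73 in rats 1, 2 and 3. For miR-342-5p it was 3.95, 2.18 and 2.69, and for miR-1249 it was 1.97, 4.79 and 2.90. Rat 1 thus had the largest proximal tubule difference of the 5p arm and the smallest of the other two miRNAs.

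None of the 3 was an abundant miRNA. By mean level in the proximal tubule, miR-342-3p ranked 100 of 188, between miR-3068-3p at 25.2 and miR-497-5p at 23.4. miR-1249 ranked 111, between miR-24-2-5p at 16.4 and miR-148a-5p at 15.7. miR-342-5p ranked 118, between miR-199a-5p at 13.4 and miR-221-3p at 12.8. The gap to each of these neighbours was smaller than the member's own SD between rats. The ranks were lower in the glomerulus (150 to 167), thick ascending limb (150 to 186) and collecting duct (163 to 181).

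The balance of the miR-342 arms, which played no part in the choice of the members, differed between the proximal tubule libraries. In the proximal tubule of rat 1 the 3p arm made up 45 of 137 reads of the pair, or 32.8% (95% Clopper-Pearson interval 25.1% to 41.4%). In rat 2 it made up 205 of 232 reads, or 88.4% (83.5% to 92.2%), and in rat 3 it made up 23 of 32 reads, or 71.9% (53.3% to 86.3%). The interval of rat 1 did not meet that of rat 2 or of rat 3. These intervals cover counting error within 1 library per rat, with reads taken as independent, so a difference between rats was not tested. In rat 1 the 5p arm was higher in runs A, B and C and equal to the 3p arm in run D, and these runs are repeats of 1 library.

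Outside the proximal tubule the 3p arm was the higher one in all 5 libraries that held either arm. Of these only the glomerulus of rat 1 and the thick ascending limb of rat 2 held both arms. It made up 31 of 47 reads in the glomerulus of rat 1, or 66.0% (50.7% to 79.1%). In the thick ascending limb it made up 7 of 7 reads in rat 1, 12 of 16 in rat 2 (75.0%, 47.6% to 92.7%) and 22 of 22 in rat 3, and in the collecting duct of rat 2 it made up 18 of 18. The remaining glomerulus and collecting duct libraries held no read of either arm. On the log2(value + 1) scale the 3p minus the 5p arm was -0.84, 2.78 and 1.61 in the proximal tubule of rats 1, 2 and 3. Its mean was 1.18 ± 1.85 there, against 1.61 ± 0.11 in the thick ascending limb (SD, n = 3 each). The 5p arm was at 0 in the thick ascending limb of rats 1 and 3, so the value there depends on the added 1.

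Such a change of order within the proximal tubule was also seen for other precursors. Of 30 precursors with both arms in the table, 6 had a 3p minus 5p difference whose sign differed among the 3 proximal tubule libraries, and miR-342 was 1 of these. By the range of the difference over the 3 libraries, miR-342 ranked 6 of 30, with a range of 3.62 against a median of 1.45. Over the 21 precursors whose lower arm had a proximal tubule mean of at most 30, the median was 2.52.

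**Figure D2:**
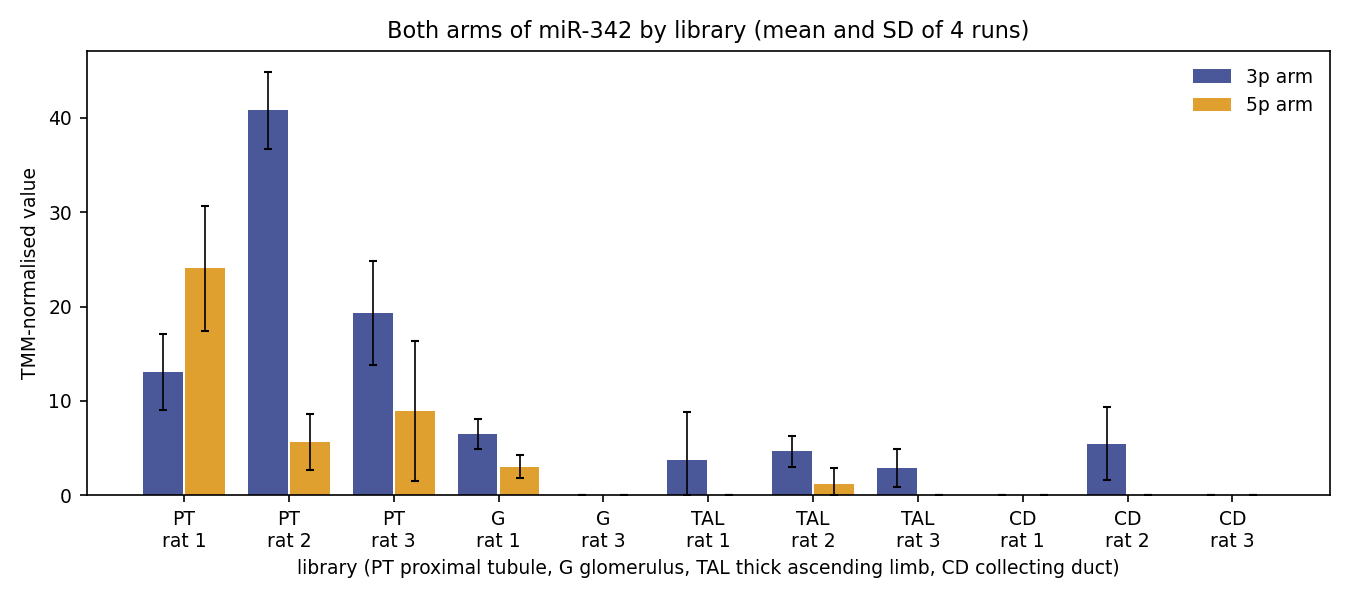
Level of miR-342-3p and miR-342-5p (authors' TMM-normalised signal) side by side in each library, with error bars of 1 SD over the 4 runs, the lower bar ending at 0. The 5p arm is the higher one only in the proximal tubule of rat 1, at 24.0 against 13.1 for the 3p arm.

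**Figure D3:**
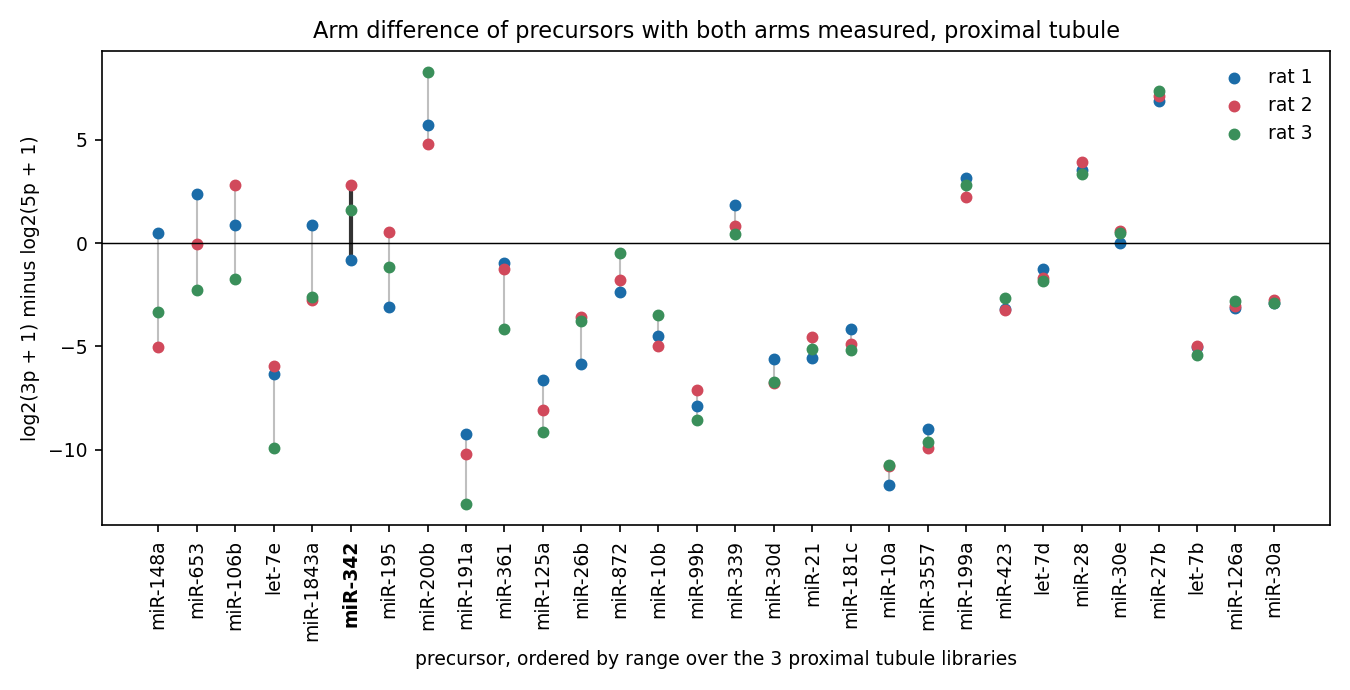
Difference of the 3p and 5p arms, log2(value + 1), in the 3 proximal tubule libraries for each of the 30 precursors with both arms in the table. miR-342 runs between -0.84 in rat 1 and 2.78 in rat 2 and is 1 of 6 precursors whose points lie on both sides of 0.

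Differences among the glomerulus, the thick ascending limb and the collecting duct do not contain the proximal tubule and were tested with limma over all 188 miRNAs, with the rat as a block and Benjamini-Hochberg adjustment. Between the glomerulus and the thick ascending limb 0 of the 3 members passed, against 21 of 188 (11.2%) over the table, 6 higher and 15 lower. The difference was 0.08 ± 1.22 for miR-342-3p (95% interval -2.33 to 2.48, limma adjusted p = 0.975), 0.68 ± 1.30 for miR-342-5p (-1.87 to 3.23, adjusted p = 0.816) and -0.10 ± 1.28 for miR-1249 (-2.62 to 2.41, adjusted p = 0.974). Each interval held differences of more than 2 on the log2 scale, so the missed threshold does not show that these segments were alike. Without the glomerulus library of rat 3, which leaves a single one assumed to vary like the other segments, the differences were 1.64 (limma adjusted p = 0.509), 1.34 (adjusted p = 0.643) and 0.14 (adjusted p = 0.958). Without that of rat 1 instead they were -1.49, 0.0173 and -0.35, so the sign for miR-342-3p depended on which library was kept. miR-1249 was at 0 in every library of both segments. Its differences here came from the adjustment for the rat alone, and with no rat block the difference was 0.

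Between the glomerulus and the collecting duct 0 of the 3 members passed, against 28 of 188 (14.9%), 7 higher and 21 lower. The miR-342 arms had positive differences, 1.12 ± 1.22 for the 3p arm (-1.28 to 3.52, limma adjusted p = 0.62) and 0.96 ± 1.30 for the 5p arm (-1.60 to 3.51, adjusted p = 0.679). miR-1249 had a negative one, -1.74 ± 1.28 (-4.26 to 0.77, adjusted p = 0.392). Leaving out the glomerulus library of rat 3 gave 2.68 for miR-342-3p (limma adjusted p = 0.269), 1.62 for miR-342-5p (adjusted p = 0.609) and -1.498 for miR-1249 (adjusted p = 0.609). Leaving out that of rat 1 gave -0.44 for miR-342-3p (limma adjusted p = 0.822), 0.30 for miR-342-5p (adjusted p = 0.888) and -1.99 for miR-1249 (adjusted p = 0.344), so the miR-342-3p difference was positive or negative with the library kept.

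Between the thick ascending limb and the collecting duct 0 of the 3 members passed, against 4 of 188 (2.13%), all 4 lower in the thick ascending limb. In the tubule segments alone, without the glomerulus libraries that enter through the shared spread, 26 of 188 passed, 5 higher and 21 lower. The members were not among them. Leaving out a single glomerulus library gave the same split, because the one left is fitted exactly and adds nothing to this contrast. miR-342-3p differed by 1.04 ± 1.06 (-1.04 to 3.12, limma adjusted p = 0.766), miR-342-5p by 0.28 ± 1.13 (-1.93 to 2.49, adjusted p = 0.917) and miR-1249 by -1.64 ± 1.11 (-3.82 to 0.54, adjusted p = 0.61). In each of the 3 contrasts, 0 of the 3 members had an unadjusted limma p under 0.05.

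**Figure D4:**
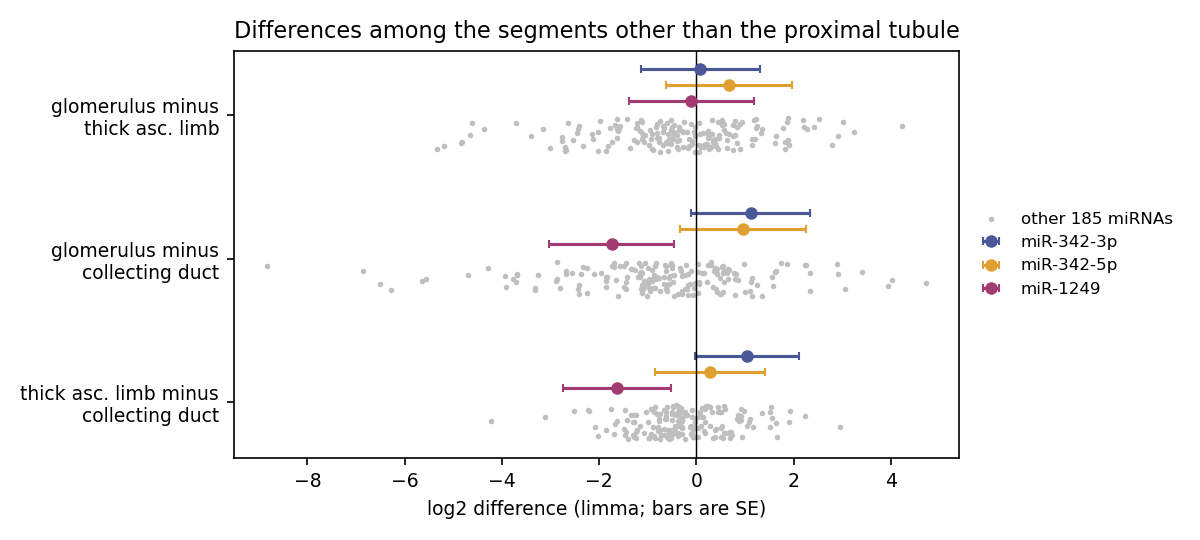
log2(value + 1) differences among the segments other than the proximal tubule, with SE bars for the 3 members and grey points for the other 185 miRNAs. miR-1249 lies at -1.74 and -1.64 against the collecting duct, and none of the 9 member differences passed the test.

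No difference among the rats passed either. The F statistic for the rat was 1.64 for miR-342-3p, 0.50 for miR-342-5p and 0.12 for miR-1249 (limma adjusted p = 0.992 each). Among all 188 miRNAs 0 (0%) passed in this limma test, and 8 had an unadjusted p under 0.05. With array weights 2 of 188 passed, and likewise 2 in the tubule segments alone.

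The profiles most like each member over the 11 libraries were found by Pearson correlation of log2(value + 1), given as a description, since the libraries share segments, rats and depth. For miR-342-3p they were miR-148b-3p (r = 0.877, Spearman rho = 0.873), miR-192-5p (r = 0.870, rho = 0.807), miR-541-5p (r = 0.860, rho = 0.826), miR-339-5p (r = 0.859, rho = 0.862) and miR-409b (r = 0.828, rho = 0.815). The opposite arm, miR-342-5p, came at place 13 for miR-342-3p, with r = 0.776 and rho = 0.850. miR-1249 came at place 55, with r = 0.491.

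For miR-342-5p the first was miR-409b (r = 0.886, rho = 0.810), followed by miR-541-5p (r = 0.865), miR-192-5p (r = 0.803), miR-411-5p (r = 0.786) and miR-342-3p at place 5. For miR-1249 they were miR-194-5p (r = 0.791, rho = 0.600), miR-151-3p (r = 0.783, rho = 0.749), miR-203b-3p (r = 0.724), miR-28-3p (r = 0.720) and miR-192-5p (r = 0.714). miR-192-5p, a marker of the proximal tubule, was the only miRNA among the first 5 of all 3 members. Its rho was 0.807 with miR-342-3p, 0.699 with miR-342-5p and 0.555 with miR-1249. The members were chosen for a high proximal tubule level, so nothing is read from this likeness.

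**Figure D5:**
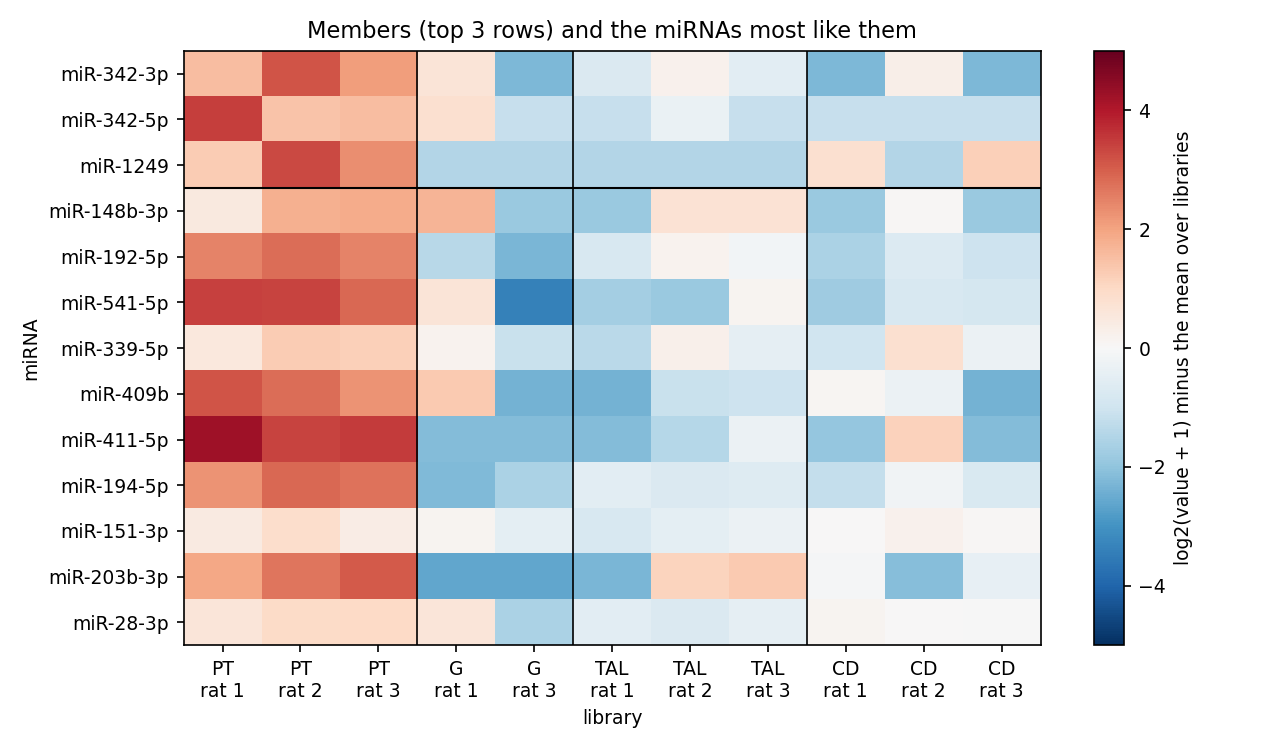
Heat map of log2(value + 1) in the 11 libraries (PT proximal tubule, G glomerulus, TAL thick ascending limb, CD collecting duct), less each miRNA's mean over libraries, for the 3 members and the miRNAs most like them. The proximal tubule columns are above the mean in the members' rows. Among them miR-1249 of rat 1 is the closest to the mean, at a level of 5.95. Some other columns lie above the mean too, such as the glomerulus of rat 1 for both miR-342 arms and the collecting duct of rats 1 and 3 for miR-1249.

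miR-409b, miR-541-5p and miR-411-5p belong to the Dlk1-Dio3 cluster, an imprinted group of miRNA genes that lies on the chromosome of Evl. In GRCr8 Mir411 lay 1215 kb from Mir342 on the same strand, the gene of miR-409b lay 1250 kb away on the opposite strand, and Mir541 lay between them on the strand of Mir342. Of 49 listed miRNAs of the cluster 5 were measured. These 3 are among the profiles most like members chosen for a high proximal tubule level, so their own proximal tubule levels are given as a description, with no test. miR-541-5p averaged 229 in the proximal tubule, against 20.2 in glomeruli, 14.1 in thick ascending limbs and 10.8 in collecting ducts (log2 difference 4.45). The log2 difference was 5.08 for miR-411-5p and 3.63 for miR-409b. miR-300-3p differed by 2.29 (limma adjusted p = 0.0914) and miR-127-3p, which lies nearest to Mir342 at 999 kb, by 1.00 (adjusted p = 0.414), neither past the threshold. In the 3 contrasts among the other segments 0 of the 5 passed in limma, and 0 had an unadjusted p under 0.05. Over all 188 miRNAs 2.13% to 14.9% passed in these contrasts.

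The miRNAs of the table nearest to Mir1249 were let-7c-5p, let-7c-2-3p, let-7b-5p and let-7b-3p, 728.1 to 728.6 kb away on the opposite strand. let-7c-5p averaged 3127 in the proximal tubule, against 1874 in glomeruli, 2481 in thick ascending limbs and 3315 in collecting ducts. Its proximal tubule difference was 0.46 (limma adjusted p = 0.457) and that of let-7b-5p was 1.03 (adjusted p = 0.0605). The difference was 0.61 for let-7c-2-3p (limma adjusted p = 0.725) and 0.25 for let-7b-3p (adjusted p = 0.837), so none of these passed.

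Other miRNAs known from human or mouse to lie in introns of protein-coding genes were compared as a list, which leaves out miR-342 and miR-1249. Of 60 listed miRNAs 37 others were measured, as 46 mature arms, and 3 of the 46 (6.52%) were higher and 0 lower in the proximal tubule than in the mean of the other segments, against 12.8% over all 188. They were miR-218a-5p (log2 difference 2.43), from introns of the Slit guidance genes, miR-425-5p (1.83) and miR-28-3p (1.20), from an intron of Lpp. The median over the list was 0.57, against 0.36 over all miRNAs.

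In the contrasts among the other segments the share of the list that passed was near that of the whole table. Few arms passed, so nothing is read from their split into higher and lower. Between the glomerulus and the thick ascending limb the higher ones included both arms of miR-126a. The split over all 188 also moved under rescaling, as given in the closing section. Between the glomerulus and the thick ascending limb 4 were higher and 1 lower (10.9%), against 6 higher and 15 lower over all 188, with a median of -0.17 against -0.36 over all. Between the glomerulus and the collecting duct 4 were higher and 2 lower (13.0%), against 7 higher and 21 lower over all 188, with a median of -0.43 against -0.61. Between the thick ascending limb and the collecting duct 0 were higher and 1 lower (2.17%), against 0 higher and 4 lower over all 188, with a median of -0.39 against -0.36.

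Since miR-342 is known from leukocytes, the miRNAs of leukocytes were examined beside it. Of 7 listed miRNAs 6 were measured, as 7 arms. In each of the 4 contrasts 0 of the 7 passed the limma test, against 2.13% to 14.9% of all 188 miRNAs. At such shares few calls would fall among 7 arms, so nothing is read from the 0. At an unadjusted p under 0.05 there were 0 in the proximal tubule contrast, 1 between the glomerulus and the thick ascending limb and 2 in either contrast with the collecting duct. Their summed level was 3704 to 4986 in the proximal tubule, against 3664 to 7371 in glomeruli, 1972 to 3425 in thick ascending limbs and 2970 to 4454 in collecting ducts. The highest sum, 7371, was in the glomerulus library of rat 1, which was also the highest library outside the proximal tubule for both miR-342 arms. Most of the sum was miR-181a-5p, which other cells also express. miR-223 was not among the 188 miRNAs left by the authors' filter, and the part of leukocytes in the members' levels was not tested.

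The markers differed among themselves in the segment with the highest mean. miR-146b-5p averaged 168 in the proximal tubule, against 91.4 in glomeruli, 135 in thick ascending limbs and 120 in collecting ducts (proximal tubule difference 0.53, limma adjusted p = 0.478). miR-146a-5p averaged 463 in the proximal tubule, against 786 in glomeruli, 406 in thick ascending limbs and 330.02 in collecting ducts. miR-150-5p, a lymphocyte miRNA, had 14.7, 24.1 and 41.8 in the proximal tubule of rats 1, 2 and 3, against 101 and 47.3 in the glomerulus of rats 1 and 3, 19.3, 21.4 and 14.5 in the thick ascending limb and 92.4, 84.8 and 66.8 in the collecting duct of rats 1, 2 and 3. miR-142-5p, found in blood cells, had 9.37, 13.1 and 9.73 in the proximal tubule of rats 1, 2 and 3, against 3.78 to 31.4 over the other 8 libraries. miR-155-5p, induced in activated lymphocytes and macrophages, had 5.42, 0.913 and 0 in the proximal tubule of rats 1, 2 and 3, against 0 in both glomerulus libraries, 0, 0 and 4.23 in the thick ascending limb and 5.62, 5.12 and 17.7 in the collecting duct of rats 1, 2 and 3.

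Markers of other cell types were read in the same fit, for the proximal tubule against the mean of the other segments. Over all 188 miRNAs 12.8% passed in this contrast. Of the miR-200 family of epithelial miRNAs 0 of 5 arms passed limma's test (1 with an unadjusted p under 0.05), with a summed level of 436 to 673 in the proximal tubule, against 36.1 to 133 in glomeruli, 417 to 800 in thick ascending limbs and 839 to 1612 in collecting ducts. Of the endothelial miR-126 arms 0 of 2 passed (1 unadjusted), and of the smooth muscle miRNAs miR-143 and miR-145 0 of 2 passed (0 unadjusted). The glomerulus differed from the thick ascending limb in 4 of the 5 epithelial arms, lower in the glomerulus, and in both endothelial arms, higher in the glomerulus. Between these 2 segments 11.2% of all 188 miRNAs passed.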

How the data were processed

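Small RNA of laser-captured rat nephron segments was sequenced in 11 libraries, each run on 4 flow cells. The deposited signal values were made by the authors from read counts with TMM normalization and a filter on low counts, per the name of their table, which holds 188 miRNAs. Partek 6.0, Bowtie2 2.2.5, Bowtie 1.0.0 and the build rn6 are named, per the submitters' processing notes. Sequences and positions come from RefSeq tables of another build, GRCr8, matched by name for 172 miRNAs.

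The 3 members and all lists were chosen with earlier results of these data known. Named are the members, the 5 miRNAs most like each, their neighbours by rank, and the listed miRNAs; the let-7 neighbours of Mir1249 were added after values were seen. Pairs of rat and segment come from 1 animal, so the rat was a block; the libraries' deviations around their segment correlated with a median r of 0.0826 in 15 same-rat pairs and -0.0665 in 30 pairs of different rats.

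log2(value + 1) was averaged over runs and fitted with limma 3.58.1 (R 4.3.3) on segment and rat over 11 libraries, with a variance trend, two-sided, Benjamini-Hochberg over 188 miRNAs at 0.05. The fit had 5 residual degrees of freedom per miRNA, but the prior variance was estimated with infinite degrees of freedom. miRNAs of like abundance therefore shared 1 variance. A miRNA's own spread between libraries had no weight in its SE, interval or p-value. The value of 1 read per run was taken from the steps between low values: with a tolerance of 0.03 reads, 88.3% to 99.0% of values below 30 reads were whole (limits set after seeing the values), so no count test was run. The step search and the fit were tested on simulated data. Alternatives are given in the closing section.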

Additional observations from a re-analysis of the deposited data

How the results depend on the processing

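Under every alternative that gave a value, none of the 279 tests of a member passed, the lowest adjusted p being 0.238 (limma), and the proximal tubule differences of the 3 members stayed positive. The proximal tubule contrast chose the members, so nothing is read from the sign of these differences. With a pseudocount of 4 they were 1.94 (miR-342-3p), 1.67 (miR-342-5p) and 1.86 (miR-1249). Leaving out single libraries gave 2.40 to 3.44, 2.31 to 3.32 and 2.44 to 3.96. Some differences in the other contrasts changed sign or went to 0, and not only the smallest ones. For the glomerulus minus the thick ascending limb, miR-342-3p had -0.45 with no replicate block (rat block removed), -0.0595 with array weights, -0.18 with median of ratios, -0.0914 with the same total, -0.73 on flow cell B and -1.02 on flow cell C, and -1.49 to 1.64 with single libraries left out. There miR-1249 was at 0 in every library of both segments, so its sign shows no difference in level. It had 0.0165 with a pseudocount of 4, 0 with no block, 0.57 after quantile normalization and -0.41 to 0.26 with single libraries left out. For the thick ascending limb minus the collecting duct, miR-342-3p had -0.32 on flow cell A, and miR-342-5p had 0 on flow cells A and D and -0.18 to 0.82 with single libraries left out. For the glomerulus minus the collecting duct, miR-342-3p ranged over -0.44 to 2.68 with single libraries left out.

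Counts over the table moved more. The glomerulus minus thick ascending limb count was 13 with array weights, 44 with median of ratios, 43 with the same total, 32 after quantile normalization and 15 to 44 with single libraries left out (44 without the glomerulus of rat 1 and 36 without that of rat 3). Its split was 6 higher and 15 lower, against 21 and 23, 22 and 21, and 18 and 14 in the 3 rescalings. The glomerulus minus collecting duct count was 16, 44, 48 and 44 in the same order and 20 to 67 with single libraries left out (67 without the glomerulus of rat 1), with splits of 7 and 21, against 22 and 22, 29 and 19, and 25 and 19. The thick ascending limb minus collecting duct count was 7 with no replicate block, 1 with no variance trend, 20 with array weights, 9 with median of ratios, 1 on flow cell D, 26 in tubule segments alone and 0 to 26 with single libraries left out (26 without either glomerulus library, 0 without the collecting duct of rat 2). Its split was 0 and 4, against 4 and 5, 4 and 1, and 4 and 1. The proximal tubule count was 48 with median of ratios, 46 with the same total, 46 after quantile normalization, 42 in tubule segments alone and 9 to 62 with single libraries left out (62 without the glomerulus of rat 1, 9 without the proximal tubule of rat 3), with splits of 21 and 3, against 26 and 22, 31 and 15, and 23 and 23. The rat count was 2 with array weights, 2 in tubule segments alone and 0 to 2 otherwise. The median of the proximal tubule difference over all miRNAs was 0.36, against 0.07, 0.22 and -0.03 in the 3 rescalings. The cause was not tested.

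The arm difference in the thick ascending limb was 1.72 with median of ratios and with the same total, 1.25 after quantile normalization, 2.13 and 0.75 with pseudocounts of 0.5 and 4, and 0.89, 2.03 and 1.87 on flow cells A, B and C. In the proximal tubule it was 0.385 to 2.197 with single libraries left out. A filter at a mean of 10 leaves out members and gives them no value. The limits are the low read numbers, 3 rats, and 2 glomerulus libraries, 1 of them shallow.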
